A study of Homo sapiens with 12 samples.

Results

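The integrated stress response was followed through 8 of its genes in MEC1, a long-established line of human B cells whose donor had chronic lymphocytic leukemia. The genes were ATF4, ATF3, DDIT3, TRIB3, PPP1R15A, ASNS, SESN2 and XBP1, taken by symbol from a table of 29326 genes with an annotated intron. The table listed splicing events (exon inclusion, intron retention, choice between alternative sites), each with its level in percent of transcripts. The 8 genes had 173 of its 721551 events, of which 147 held at least 10 reads in all 12 samples, against 340966 events of all genes. Exon-exon junction reads, summed over the annotated introns of a gene, served as its spliced reads and were scaled to the sample's total of such reads (RPM).

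The 4 groups of 3 samples were K700E cells in H3B-8800, K700E cells in DMSO, WT cells in H3B-8800 and WT cells in DMSO, each treated for 6 h. The splicing modulator H3B-8800, a compound that binds the SF3B complex, was given at 75 nM in the vehicle DMSO. K700E is a recurrent mutation of SF3B1, a core component of that complex. The K700E replicates were 3 edited clones that also carried a second base change. Of the WT replicates, 1 and 2 were different cultures of the line, while 3 was an edited clone with that second change but not K700E. Because WT replicate 3 alone is an edited clone among the WT samples, editing and cloning are only partly separated from the mutation in a difference of K700E from WT. The same cultures and clones received H3B-8800 and DMSO, so p-values measure the spread between these cultures and clones of 1 line.

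In the integrated stress response, kinases that sense amino acid shortage, unfolded protein, haem shortage or double-stranded RNA phosphorylate the translation factor eIF2, which lowers protein synthesis while the mRNA of the transcription factor ATF4 is translated more. ATF4 turns on genes for amino acid supply such as ASNS, further transcription factors such as ATF3 and DDIT3 (CHOP), and feedback genes such as TRIB3 and PPP1R15A. XBP1 belongs to the parallel branch of the unfolded protein response run by the endonuclease IRE1, which is prominent in antibody-secreting B cells.

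At 6 h, H3B-8800 raised the spliced reads of PPP1R15A in both genotypes and of XBP1 in WT, and lowered those of SESN2 in both. With each treated sample matched to its own culture or clone, DDIT3, TRIB3 and XBP1 were also called higher in both genotypes. The same fit called ATF3 higher in WT, and ATF4 and ASNS lower in both genotypes. It called 78.3% of all genes in K700E and 82.4% in WT. The sign of the ATF4 change in both genotypes, and of the ASNS change in WT, depended on how the reads were scaled. The largest splicing changes of the set lay in DDIT3, whose second intron was retained more often and whose spliced transcripts used a downstream acceptor in a larger share, and in SESN2, whose exons were skipped and introns retained. ASNS gained a rarely used upstream acceptor. ATF4, ATF3, TRIB3, PPP1R15A and XBP1 had no called splicing event. The sequences at the sites that changed are given first, because the site used decides which start codons and reading frames the transcripts hold. They were read from the GENCODE transcripts of hg38, 5′ to 3′ on the coding strand.
DDIT3 acceptors, chr12:57517417-57517446, minus strand: tcctgcAGatgtgcttttccAGactgatcc
SESN2 exon 6, chr1:28273358-28273508, plus strand: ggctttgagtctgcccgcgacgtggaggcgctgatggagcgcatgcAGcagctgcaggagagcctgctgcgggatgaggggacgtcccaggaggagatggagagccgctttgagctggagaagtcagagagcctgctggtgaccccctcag
ASNS extension and the start of its exon, chr7:97854661-97854754, minus strand: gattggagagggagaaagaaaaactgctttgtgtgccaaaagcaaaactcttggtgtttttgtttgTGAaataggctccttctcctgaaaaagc

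In the DDIT3 window the capitals mark the last 2 intron bases before the upstream and the downstream acceptor of intron 2, which lie 14 nt apart. The exon that starts at the upstream acceptor begins with an atg, and that start codon is absent from the exon that starts downstream. In SESN2 exon 6 the capitals mark the 2 bases before an acceptor inside the exon, and inclusion was measured for the exon from either start. In ASNS the window holds a 74-nt extension followed by the first exon bases, and the capitals mark the first stop codon in the reading frame, at base 67 of the window.

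Spliced reads totalled 45840233 to 56676172 per sample. Unspliced reads, the mean of the 2 exon-intron junctions of each intron, made up 4.50% to 6.05% of all reads at annotated introns in H3B-8800 and 1.86% to 2.43% in DMSO. All 8 B cell markers were measured, with summed levels of 4995 to 7078 RPM in K700E H3B-8800, 4767 to 6242 RPM in K700E DMSO, 3982 to 5012 RPM in WT H3B-8800 and 3738 to 5011 RPM in WT DMSO. Of the other lineages, 5 myeloid markers with values summed to 0.386 to 1.69 RPM, with LYZ, CD14 and S100A8 at 0 or near it. The 6 T and NK cell markers summed to 6.01 to 10.4 RPM in K700E H3B-8800, 5.96 to 9.39 RPM in K700E DMSO, 8.83 to 36.3 RPM in WT H3B-8800 and 9.47 to 32.1 RPM in WT DMSO, mostly GNLY, with CD3D and CD7 at 0 or near it. GNLY differed by −1.57 (log2) in DMSO and −1.54 in H3B-8800 between K700E and WT, without a call (limma adjusted p = 0.153 and 0.106), and WT replicate 3, the edited clone, lay within the range of the K700E samples (7.88 RPM in H3B-8800 and 8.53 RPM in DMSO). Its part in the differences between genotypes was not tested. The 6 fibroblast and epithelial markers summed to 15.6 to 20.2 RPM in K700E H3B-8800, 13.5 to 17.7 RPM in K700E DMSO, 14.4 to 16.5 RPM in WT H3B-8800 and 11.3 to 12.3 RPM in WT DMSO, mostly KRT8 and COL1A1, with COL1A2 at 0 or near it, and their part in the results was not tested. In these bulk samples fewer cells and less RNA per cell cannot be told apart.

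The first comparison asked how far H3B-8800 changed the spliced transcripts of the stress response within each genotype. Over all 10182 genes tested, 52% were called in K700E (16.2% higher and 35.8% lower) and 59.3% in WT (18.5% higher and 40.8% lower), at an adjusted p under 0.05 by limma. The median gene changed by −0.22 in K700E and by −0.28 in WT on the log2 scale. Among the 8 genes, 2 were called in K700E, 1 higher and 1 lower, and 3 were called in WT, 2 higher and 1 lower. Their median log2 change was 0.22 in K700E and 0.36 in WT. Scaled by median of ratios in place of the total, 4 were called in K700E (3 higher and 1 lower, median 0.43) and 5 in WT (4 higher and 1 lower, median 0.63), where all genes split into 26.4% higher and 26.2% lower in K700E (52.7% in all) and 29.2% higher and 29.3% lower in WT (58.6% in all). With the culture or clone as a block, which the labels support, 7 of the 8 were called in K700E (4 higher and 3 lower) and all 8 in WT (5 higher and 3 lower). In that fit 78.3% of all genes were called in K700E (26.9% higher and 51.5% lower) and 82.4% in WT (27.9% higher and 54.5% lower).

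ATF4 (ENSG00000128272, chr22:39519695-39522685, plus strand, hg38), the transcription factor at the centre of the response, had 135, 147 and 133 RPM in K700E H3B-8800 and 158, 180 and 129 RPM in K700E DMSO. WT cells had 105, 96.2 and 98.9 RPM in H3B-8800 and 124, 106 and 108 RPM in DMSO. It was lower in H3B-8800 in 5 of the 6 cultures and clones, all but K700E clone 3. The treated and untreated ranges overlapped in K700E and did not overlap in WT. The log2 change was −0.16 ± 0.11 (SE, n = 3 each) in K700E and −0.17 ± 0.11 in WT, with limma adjusted p = 0.269 and 0.219, and 0.0313 and 0.0211 with the block. The K700E change also passed without the DMSO library of K700E clone 3 (−0.28, adjusted p = 0.0332). With median-of-ratios scaling ATF4 changed by 0.06 in K700E and 0.10 in WT, so the sign of its change depends on the scaling.

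ATF3 (ENSG00000162772, chr1:212565334-212620777, plus strand), a stress-induced transcription factor of the same family, had 5.61, 5.50 and 6.10 RPM in K700E H3B-8800 and 5.87, 4.08 and 5.34 RPM in K700E DMSO. In WT it had 3.95, 3.47 and 2.87 RPM in H3B-8800 and 3.63, 2.33 and 2.24 RPM in DMSO. The treated and untreated ranges overlapped in both genotypes. The ATF3 log2 change was 0.19 ± 0.22 in K700E (SE, limma adjusted p = 0.512) and 0.35 ± 0.22 in WT (adjusted p = 0.199). With the block the adjusted p was 0.230 in K700E and 0.0330 in WT, and with median-of-ratios scaling the changes were 0.40 (adjusted p = 0.164) and 0.62 (adjusted p = 0.0369). The WT change also passed when DMSO replicate 1 was left out (0.57, adjusted p = 0.0420).

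DDIT3 (ENSG00000175197, chr12:57516588-57521737, minus strand), the CHOP transcription factor linked to cell death under prolonged stress, had 23.3, 17.4 and 11.2 RPM in K700E H3B-8800 and 15.04, 9.64 and 9.37 RPM in K700E DMSO. The WT samples had 11.1, 9.02 and 9.91 RPM in H3B-8800 and 7.29, 6.34 and 6.70 RPM in DMSO. Every treated sample lay above its own untreated culture or clone, and the WT ranges did not overlap. The log2 change was 0.58 ± 0.25 in K700E and 0.56 ± 0.25 in WT (SE, n = 3 each), which missed the threshold in the unblocked fit (limma adjusted p = 0.0778 and 0.0785) and passed it with the block (0.000402 and 0.000457). They also passed with median-of-ratios scaling (0.79 and 0.83, limma adjusted p = 0.0167 and 0.0118), with unspliced reads added (0.70 and 0.71, adjusted p = 0.0371 and 0.0325) and at the single intron with the most reads (0.84 and 0.79, adjusted p = 0.0158 and 0.0185). Unblocked, the K700E change passed without the H3B-8800 library of clone 3 (0.86, adjusted p = 0.00814) or the DMSO library of clone 1 (0.80, adjusted p = 0.0236), and the WT change passed without the H3B-8800 library of K700E clone 3 (0.0299) or clone 1 (0.0409). These sums take intron 2 as ending at its upstream acceptor. The reads of all other acceptors of intron 2 were then added, a choice made after seeing the data. With them the log2 change was 0.59 in K700E (limma adjusted p = 0.0652) and 0.55 in WT (adjusted p = 0.0745). Whether some of those reads were already in the sums was not tested.

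TRIB3 (ENSG00000101255, chr20:362835-397559, plus strand), a pseudokinase that restrains ATF4 and DDIT3, had 4.43, 6.08 and 8.82 RPM in K700E H3B-8800 and 3.64, 5.47 and 7.13 RPM in K700E DMSO. In WT it had 9.35, 8.02 and 7.99 RPM in H3B-8800 and 6.60, 6.48 and 6.51 RPM in DMSO. It was higher in H3B-8800 in 6 of 6 cultures and clones, but the K700E clones differed from each other by more than the treatment did. The log2 change was 0.25 ± 0.27 in K700E (SE, limma adjusted p = 0.467) and 0.37 ± 0.27 in WT (adjusted p = 0.259). With the block the adjusted p was 0.0370 in K700E and 0.00443 in WT. The unblocked K700E change turned to −0.01 without the H3B-8800 library of clone 3 or the DMSO library of clone 1.

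PPP1R15A (GADD34, ENSG00000087074, chr19:48872392-48876057, plus strand) encodes the stress-induced partner of protein phosphatase 1 that removes phosphate from eIF2 and so ends the response. It had 9.51, 11.01 and 15.8 RPM in K700E H3B-8800 and 4.10, 6.00 and 5.30 RPM in K700E DMSO. WT cells had 11.8, 10.5 and 10.9 RPM in H3B-8800 and 6.23, 4.90 and 5.11 RPM in DMSO. The treated and untreated samples did not overlap in either genotype. PPP1R15A rose 2.33-fold in K700E (log2 1.22 ± 0.20, SE, limma adjusted p = 0.000484) and 2.05-fold in WT (1.04 ± 0.20, adjusted p = 0.00111), the largest increase among the 8 genes.

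ASNS (ENSG00000070669, chr7:97852118-97872542, minus strand), the asparagine synthetase and a classical ATF4 target, had 185, 80.8 and 285 RPM in K700E H3B-8800 and 219, 121 and 280 RPM in K700E DMSO. In WT it had 162, 112 and 150 RPM in H3B-8800 and 186, 148 and 170 RPM in DMSO. The K700E clones spanned the widest range of any of the 8 genes, with clone 2 lowest and clone 3 highest under both treatments. The log2 change was −0.27 ± 0.41 in K700E (SE, limma adjusted p = 0.614) and −0.26 ± 0.41 in WT (adjusted p = 0.605), and the block gave 0.0163 and 0.0166. The unblocked K700E change was 0.24 without the H3B-8800 library of clone 2, and median-of-ratios scaling put the WT change at 0.01.

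SESN2 (ENSG00000130766, chr1:28259527-28282491, plus strand), a stress-induced sestrin that senses leucine and restrains the growth kinase complex mTORC1, had 9.99, 7.33 and 8.76 RPM in K700E H3B-8800 and 18.0, 12.8 and 15.6 RPM in K700E DMSO. The WT samples had 8.15, 6.31 and 6.38 RPM in H3B-8800 and 16.1, 12.8 and 15.4 RPM in DMSO. No treated sample reached an untreated one. SESN2 fell to 0.563 of its DMSO level in K700E (log2 −0.83 ± 0.17, SE, limma adjusted p = 0.00218) and to 0.469 in WT (−1.09 ± 0.17, adjusted p = 0.000268). The sum does not count junctions that skip an exon. At its intron with the most reads alone, the log2 change was −0.85 in K700E (adjusted p = 0.0112) and −1.12 in WT (adjusted p = 0.00181).

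XBP1 (ENSG00000100219, chr22:28794555-28800597, minus strand), the transcription factor of the IRE1 branch, had 73.4, 87.5 and 119 RPM in K700E H3B-8800 and 61.7, 67.0 and 94.7 RPM in K700E DMSO. In WT it had 115, 106 and 117 RPM in H3B-8800 and 71.3, 67.6 and 78.0 RPM in DMSO. The WT groups stood apart, while the K700E groups overlapped, with clone 3 highest under both treatments. XBP1 rose 1.56-fold in WT (log2 0.64 ± 0.18, SE, limma adjusted p = 0.0104), and in K700E the log2 change was 0.32 ± 0.18 (adjusted p = 0.162, or 7.10e-05 with the block). With median-of-ratios scaling the K700E change was 0.54 (limma adjusted p = 0.0407). The K700E change also passed without the H3B-8800 library of clone 1 (0.48, adjusted p = 0.0444) or the DMSO library of clone 3 (0.51, adjusted p = 0.0297). The WT change missed the threshold when any 1 WT replicate was left out in both treatments (adjusted p 0.0505 to 0.0718). The intron that IRE1 removes from XBP1 was not analysed here.

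**Figure D1:**
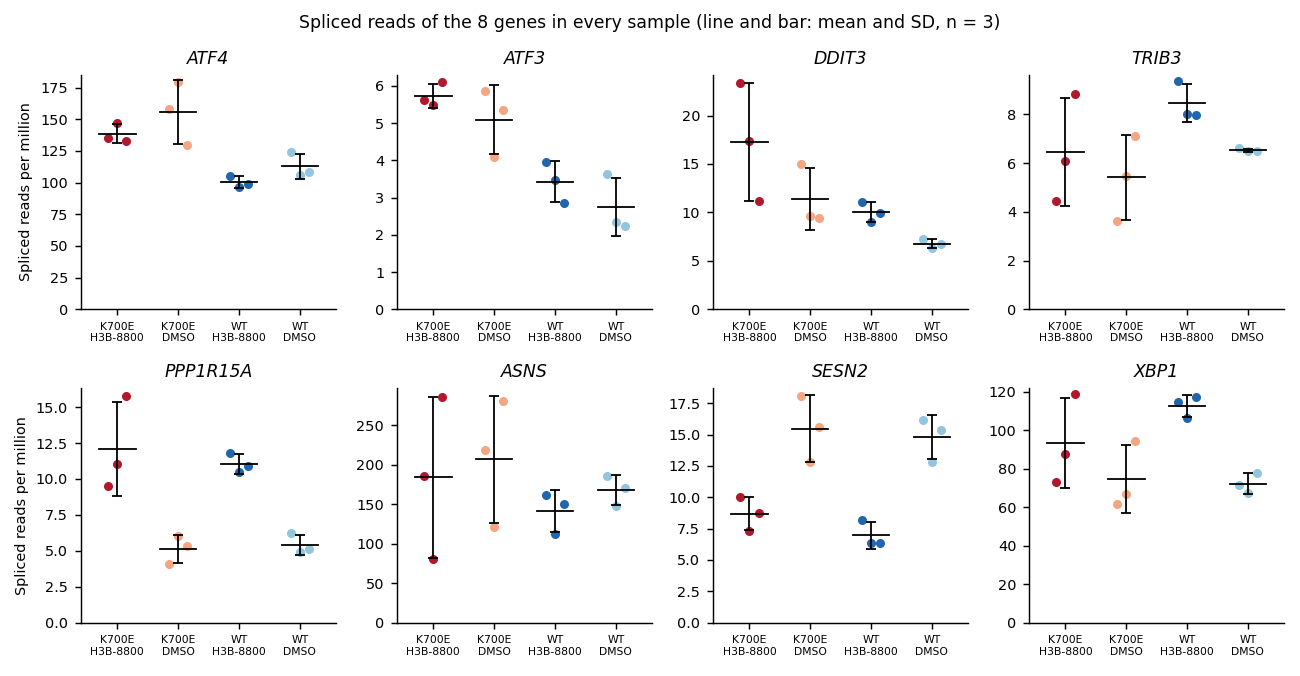
Spliced reads (RPM) of the 8 genes in each sample (points), with the group mean and SD (line and bar, n = 3) and an axis from 0. The PPP1R15A and SESN2 points of H3B-8800 and DMSO do not overlap in either genotype, and the ASNS points of the K700E clones run from 80.8 to 285 RPM in H3B-8800.

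Because each culture or clone was sampled under both treatments, its own change could be read directly. In K700E clones 1, 2 and 3, DDIT3 changed by 0.63, 0.85 and 0.25 on the log2 scale, and in the WT replicates by 0.61, 0.51 and 0.57. PPP1R15A changed by 1.21, 0.88 and 1.57 in K700E and by 0.92, 1.09 and 1.09 in WT. DDIT3, TRIB3, PPP1R15A and XBP1 were higher in 6 of 6 pairs, SESN2 was lower in 6 of 6, ATF3 was higher in 5 of 6, and ATF4 and ASNS were lower in 5 of 6. XBP1 changed by 0.25, 0.38 and 0.33 in K700E and by 0.69, 0.66 and 0.59 in WT, so the largest K700E change was smaller than the smallest WT change. SESN2 also kept its ranges apart, with −0.85, −0.80 and −0.83 in K700E and −0.99, −1.02 and −1.27 in WT.

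The difference of the treatment effect, K700E minus WT, was tested for each gene. In the unblocked fit none of the 8 genes was called, as against 0.0491% of all genes, and every adjusted p was 1.00 by limma. The number at an unadjusted p under 0.05 was also 0, and limma voom called 0. With the culture or clone as a block, XBP1 alone passed, at −0.32 ± 0.07 (log2, SE, limma adjusted p = 0.0205), where 6.05% of all genes were called. In that fit SESN2 differed by 0.26 ± 0.12 (adjusted p = 0.229), and the other 6 had adjusted p from 0.586 to 0.992.

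**Figure D2:**
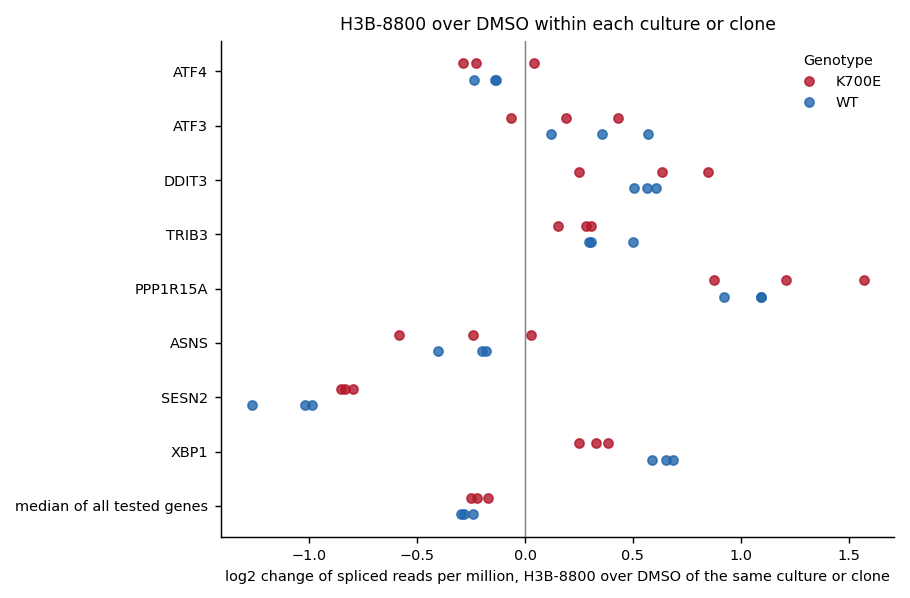
Log2 change of spliced reads (RPM), H3B-8800 over DMSO of the same culture or clone, for each of the 8 genes and for the median of all tested genes (K700E above WT, 1 point per culture or clone). The lowest pair of PPP1R15A is at 0.88 and the highest pair of SESN2 at −0.80, and the median gene between −0.30 and −0.17.

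The second comparison asked whether the transcripts of these genes were spliced differently. Of the 147 events, 93 had a mean level outside 1% to 99%, 5 were introns with unbalanced junction reads, and site 1 of an alternative-site event was not tested, which left 45 (23 introns, 8 exons and, of the alternative sites, 10 acceptors and 4 donors). SESN2 held 16 of them, ASNS 11, DDIT3 9, XBP1 4, ATF3 2, and ATF4, TRIB3 and PPP1R15A 1 each. A call required 10 points of difference or more and an adjusted p under 0.05. H3B-8800 against DMSO called 10 of the 45 in K700E (7 higher and 3 lower) and 9 in WT (6 higher and 3 lower), while 30.7% and 31.4% of all 120493 tested events were called. By kind, 5 of the 23 introns were called higher in K700E and 4 of 23 in WT, against 31.6% and 32% of all introns. Among exons 2 of 8 were called lower in each genotype, against 38% and 39.6% of all exons. Among alternative 3′ sites 3 of 10 were called in each genotype, where 12.1% and 9.33% of all such sites were. Of these 3, 2 are competing acceptors of 1 DDIT3 event, to which 5 of the 10 tested sites belong.

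In DDIT3 the change sat in intron 2, a 267-nt intron at chr12:57517439-57517705 that lies in the 5′ untranslated region just before the exon with the start codon. Its retention was 82.8%, 78.8% and 79.6% in K700E H3B-8800 and 49.7%, 48.4% and 44.7% in K700E DMSO. The WT levels were 81.6%, 85.1% and 87.5% in H3B-8800 and 38.6%, 55.2% and 48.5% in DMSO. The intron was thus common before treatment, and the treated samples stood above all untreated ones. It rose by 32.8 points in K700E (limma adjusted p = 5.70e-05) and by 37.3 points in WT (adjusted p = 1.11e-05). The deposited level takes the intron as ending at the upstream acceptor. In H3B-8800 its exon-exon reads (92, 76 and 55 in K700E, 51, 37 and 32 in WT) exceeded the reads of that acceptor in the alternative-site event. Those were 48.7, 52.8 and 32.6 in K700E and 20.3, 22.3 and 15.3 in WT. In DMSO both counts were close to each other. Whether the level already holds reads of other acceptors was not tested. The reads of the other acceptors were then added as spliced, a choice made after seeing the data. This left differences of 31.2 points in K700E (limma adjusted p = 0.000122) and 37.0 points in WT (adjusted p = 1.67e-05).

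Reads behind these levels showed where the DDIT3 transcripts were. Unspliced reads of intron 2 averaged 6.72 ± 2.72 RPM in K700E H3B-8800 and 2.19 ± 0.84 RPM in K700E DMSO, and 4.49 ± 0.23 RPM in WT H3B-8800 and 1.36 ± 0.26 RPM in WT DMSO (SD, n = 3 each). Its spliced reads averaged 1.59 ± 0.45 and 2.37 ± 0.72 RPM in K700E H3B-8800 and DMSO, and 0.81 ± 0.19 and 1.5 ± 0.21 RPM in WT H3B-8800 and DMSO. Its neighbours differed. Spliced reads of intron 1 averaged 7.33 ± 2.75 and 4.40 ± 1.13 RPM in K700E H3B-8800 and DMSO, and 4.29 ± 0.21 and 2.47 ± 0.21 RPM in WT. Spliced reads of intron 3 averaged 8.38 ± 2.92 and 4.58 ± 1.36 RPM in K700E H3B-8800 and DMSO, and 4.91 ± 0.80 and 2.81 ± 0.09 RPM in WT. Reads that crossed introns 1 and 3 in spliced form were thus more frequent in treated groups, while intron 2 was found more often unspliced. A test of single introns in RPM was not made. Retention of introns 1 and 3 was lower in H3B-8800 by 1.9 and 5.6 points in K700E (limma adjusted p = 0.232 and 0.113) and by 5.1 and 7.6 points in WT (adjusted p = 0.0393 and 0.0441), all under 10 points.

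**Figure D3:**
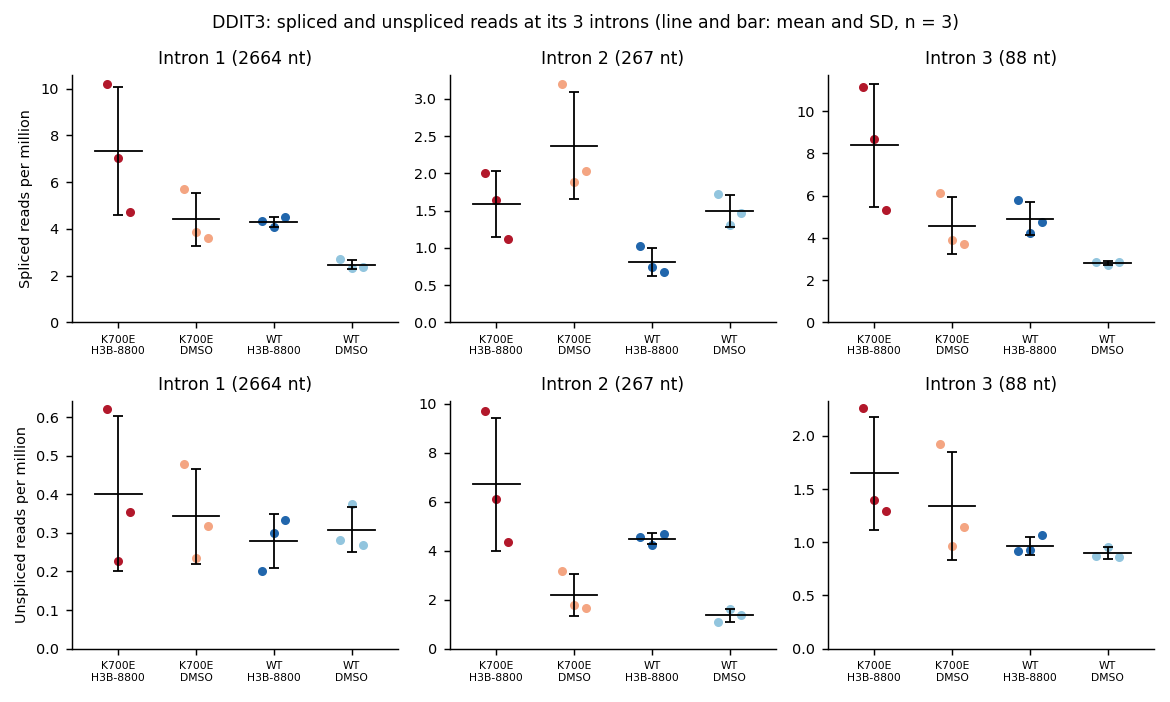
Spliced reads (top) and unspliced reads (bottom) in RPM at the 3 introns of DDIT3 in each sample, with the group mean and SD (n = 3) and axes from 0. Unspliced reads of intron 2 run from 4.24 to 9.69 RPM in H3B-8800 samples and from 1.08 to 3.16 RPM in DMSO samples, while spliced reads of introns 1 and 3 have higher means in H3B-8800.

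When intron 2 of DDIT3 was removed, the acceptor also differed. The downstream acceptor of the pair printed above, with its exon starting at 57517424, was taken in 33.2%, 47.1% and 50.7% of spliced transcripts in K700E H3B-8800 and in 10.7%, 16.4% and 16.4% in K700E DMSO. In WT it was used in 46.8%, 41.8% and 56.9% in H3B-8800 and in 13.8%, 16.9% and 8.66% in DMSO. It rose by 29.1 points in K700E (limma adjusted p = 0.000875) and by 35.4 points in WT (adjusted p = 0.000198), with 40 or more reads over the sites of the event in every sample. In reads, the upstream acceptor averaged 44.7 ± 10.7 in K700E H3B-8800 and 121.8 ± 36.9 in K700E DMSO, and 19.3 ± 3.6 in WT H3B-8800 and 80.1 ± 18.1 in WT DMSO (SD, n = 3 each). The other acceptors of the event together averaged 51.0 ± 6.5 in K700E H3B-8800 and 33.6 ± 10.9 in K700E DMSO, and 20.7 ± 3.6 in WT H3B-8800 and 16.9 ± 5.6 in WT DMSO. Upstream reads were thus fewer on average in the drug in both genotypes, while the reads of the other acceptors differed less. The exon-exon reads of the intron itself, taken as ending at the upstream acceptor, fell less than the upstream reads of the event. They were 92, 76 and 55 in K700E H3B-8800 and 174, 96 and 109 in K700E DMSO. In WT they were 51, 37 and 32 in H3B-8800 and 98, 66 and 79 in DMSO. Why the counts differed was not tested. The upstream acceptor, with its exon starting at 57517438, fell by 32.1 points to 46.4% ± 4.1 in K700E H3B-8800, against 78.4% ± 2.1 in K700E DMSO, and by 34.2 points to 48.2% ± 9.0 in WT H3B-8800, against 82.4% ± 5.5 in WT DMSO (SD, n = 3 each, adjusted p = 0.000701 and 0.000251). The exon between introns 2 and 3, which holds the start codon (its event also counts a start inside the exon), was included in 84.9%, 89.0% and 83.8% of transcripts in K700E H3B-8800 and in 93.3%, 95.1% and 96.1% in K700E DMSO. WT samples included it in 81.7%, 87.2% and 87.0% in H3B-8800 and in 96.4%, 94.4% and 95.2% in DMSO. Its differences of −8.96 points in K700E (adjusted p = 0.00140) and −9.99 points in WT (adjusted p = 0.000652) were just short of 10 points. They passed 10 points in K700E without H3B-8800 replicate 2 (−10.5), and in WT without H3B-8800 replicate 2 or 3 or DMSO replicate 2 or 3 (−10.1 to −11.0).

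The 3 forms of the DDIT3 leader were compared for their reading frames on the GENCODE transcripts. A short upstream frame of 34 codons, which is known to repress translation of DDIT3 in unstressed cells, begins at 57520480 and ends before intron 2, so it is present in every form. The main frame starts at 57517406 and has 169 codons. The upstream acceptor adds a start codon at the first base of the exon, out of frame with the main one, which opens 73 codons that overlap it. The downstream acceptor lacks that start codon. The form that keeps intron 2 has the overlapping frame as well, and a start codon at 57517475 that is in frame with the main one and gives 192 codons, as the annotation has it. These are properties of the sequence, and no protein was measured.

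SESN2 changed along most of its length. Exon 6, the 151-nt exon printed above, was included in 68.9%, 55.2% and 52.5% of transcripts in K700E H3B-8800 and in 93.0%, 96.6% and 93.7% in K700E DMSO. In WT it was included in 59.4%, 64.0% and 54.9% in H3B-8800 and in 92.1%, 93.6% and 97.3% in DMSO. The exon was close to constitutive before treatment, and every treated sample lay below every untreated one. It fell by 35.6 points in K700E (limma adjusted p = 3.50e-05) and by 34.9 points in WT (adjusted p = 3.10e-05). Its length is not a multiple of 3. On the annotated transcript, removing it shortens the reading frame to 300 codons, with a stop in exon 8, against 480 codons in the full form.

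Exon 3 of SESN2, 198 nt at chr1:28271674-28271871, was included in 93.2%, 76.9% and 55.2% of transcripts in K700E H3B-8800 and in 100%, 98.0% and 100% in K700E DMSO. WT samples included it in 82.4%, 79.0% and 83.2% in H3B-8800 and in 100%, 97.7% and 100% in DMSO. The K700E clones differed widely in the drug, with clone 1 close to its untreated level. It fell by 24.3 points in K700E (limma adjusted p = 0.000512) and by 17.7 points in WT (adjusted p = 0.000688). A test on percentage points in place of log odds gave adjusted p = 0.0517 in WT. Its removal keeps the frame and leaves 414 codons. The 2 other tested exon events, exon 9 and an alternative start of exon 4, were lower by 3.3 to 7.2 points, under the 10 points of a call.

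The 8 tested introns of SESN2 had higher mean retention in H3B-8800 than in DMSO in both genotypes, and 7 had an adjusted p under 0.05 in each. Their median change was 7.99 points in K700E and 7.54 points in WT, beside 5.07 and 4.98 points over all tested introns. Of all 120493 tested events of any kind, 82530 in K700E and 83688 in WT had an adjusted p under 0.05. Intron 3 was retained at 13.2%, 34.4% and 24.4% in K700E H3B-8800 and at 2.73%, 3.45% and 5.05% in K700E DMSO. In WT it was retained at 14.6%, 19.1% and 30.4% in H3B-8800 and at 1.85%, 2.13% and 4.26% in DMSO. It rose by 20.3 points in K700E (limma adjusted p = 0.000515) and by 18.6 points in WT (adjusted p = 0.000264). Intron 5, just before exon 6, averaged 15.6% ± 2.9 in K700E H3B-8800 and 3.1% ± 0.4 in K700E DMSO, and 16.6% ± 3.5 in WT H3B-8800 and 2.6% ± 1.1 in WT DMSO (SD, n = 3 each, adjusted p = 0.000171 and 4.65e-05). Intron 6, just after exon 6, passed 10 points in K700E (12.8% ± 0.7 in H3B-8800 and 1.9% ± 0.8 in DMSO, adjusted p = 0.000412) and not in WT (8.0% ± 4.7 in H3B-8800 and 2.3% ± 1.1 in DMSO, adjusted p = 0.00808). Their neighbours, introns 4, 7 and 8, rose by 3.6 to 8.2 points.

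Intron 2 of SESN2 had the largest retention difference, on the fewest reads. It was retained at 51.5%, 78.6% and 31.0% in K700E H3B-8800 and at 5.56%, 0% and 6.25% in K700E DMSO. The WT levels were 37.5%, 29.7% and 51.2% in H3B-8800 and 4.00%, 6.67% and 5.56% in DMSO. It rose by 49.8 points in K700E (limma adjusted p = 0.000223) and by 34.1 points in WT (adjusted p = 0.00189), with 11 to 38 reads per sample. The 0% of K700E DMSO replicate 2 rests on 11 reads and allows a share of up to 27.3%. Intervals and limits of this kind cover counting error only. In reads, intron 3 of SESN2 averaged 0.71 ± 0.29 spliced RPM in K700E H3B-8800 and 1.79 ± 0.16 in K700E DMSO, beside 0.20 ± 0.04 and 0.07 ± 0.02 unspliced RPM (SD, n = 3 each), so fewer spliced reads stood beside more unspliced ones.

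**Figure D4:**
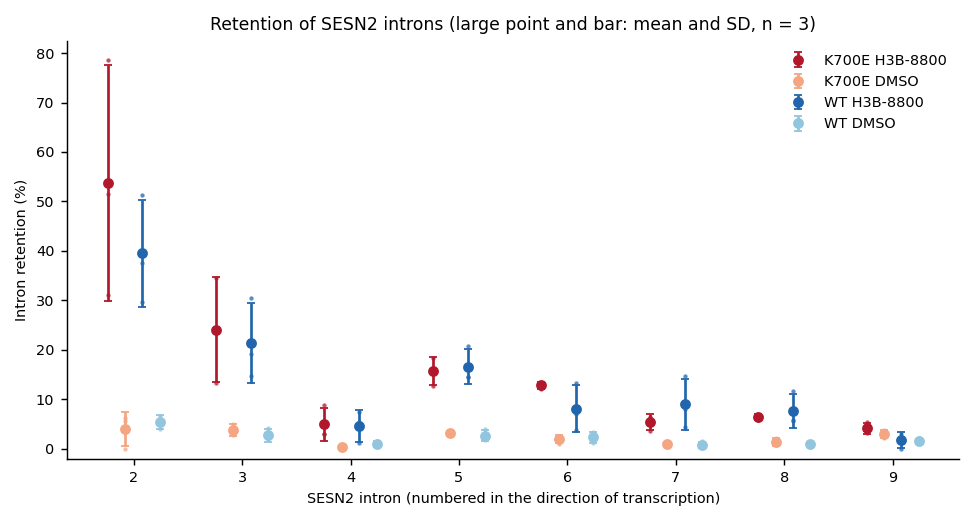
Retention of SESN2 introns 2 to 9 in percent, numbered in the direction of transcription, with the mean and SD of each group (large point and bar, n = 3) and single samples as small points. H3B-8800 means lie above DMSO means at every intron shown, from 53.7% against 3.9% at intron 2 to 4.1% against 2.9% at intron 9 in K700E.

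In ASNS an acceptor 74 nt upstream of the annotated exon start, with its exon beginning at 97854754, was used in 12.3%, 21.2% and 6.40% of spliced transcripts in K700E H3B-8800 and in 2.22%, 3.61% and 0.64% in K700E DMSO. In WT it was used in 9.13%, 16.9% and 15.8% in H3B-8800 and in 1.26%, 1.80% and 1.44% in DMSO. Treated samples were above untreated ones throughout. It rose by 11.2 points in K700E (limma adjusted p = 0.00113) and by 12.4 points in WT (adjusted p = 0.000410). Without the H3B-8800 library of K700E clone 2 the K700E difference was 7.20 points, under the threshold. The extension printed above holds an in-frame stop codon. Within K700E H3B-8800, clone 2 had the largest share of this form and the fewest ASNS spliced reads, 80.8 RPM. Clone 3 had the smallest share and the most spliced reads, 285 RPM. In reads, the upstream acceptor had 75.0, 61.0 and 63.0 in clones 1, 2 and 3, and the annotated acceptor 534, 226 and 922. The share thus differed between clones mainly through the annotated acceptor, and the clones had the same order of ASNS spliced reads in DMSO.

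The 257-nt intron of ASNS at chr7:97858956-97859212 was retained at 8.49%, 16.7% and 4.98% in K700E H3B-8800 and at 1.95%, 2.80% and 1.93% in K700E DMSO. The WT levels were 7.35%, 13.9% and 8.95% in H3B-8800 and 1.91%, 2.68% and 1.90% in DMSO. The differences of 7.8 points in K700E (limma adjusted p = 0.000988) and 7.9 points in WT (adjusted p = 0.000559) were under 10 points, and the K700E one was 10.4 points without the H3B-8800 library of clone 3. Clone 2 and WT replicate 2 were highest in the drug, as at the upstream acceptor in both genotypes. An untranslated exon of ASNS at chr7:97872351-97872449 fell by 6.1 points in K700E, to 93.4% ± 3.8 in H3B-8800, against 99.5% ± 0.8 in DMSO (SD, n = 3 each, adjusted p = 0.000702), and was at 92.4% ± 2.9 in WT H3B-8800 and 97.8% ± 0.6 in WT DMSO (adjusted p = 0.0843).

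ATF4 had 1 tested event, the 101-nt intron at chr22:39521672-39521772 within its coding part, with 5190 or more reads in every sample. It was retained at 14.8%, 15.5% and 14.3% in K700E H3B-8800 and at 6.15%, 4.02% and 6.06% in K700E DMSO. In WT it was retained at 18.6%, 19.6% and 18.9% in H3B-8800 and at 9.61%, 11.9% and 10.9% in DMSO. The 4 groups did not overlap. The differences of 9.4 points in K700E (limma adjusted p = 1.08e-05) and 8.2 points in WT (adjusted p = 0.000672) passed the p threshold and not the 10 points.

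**Figure D5:**
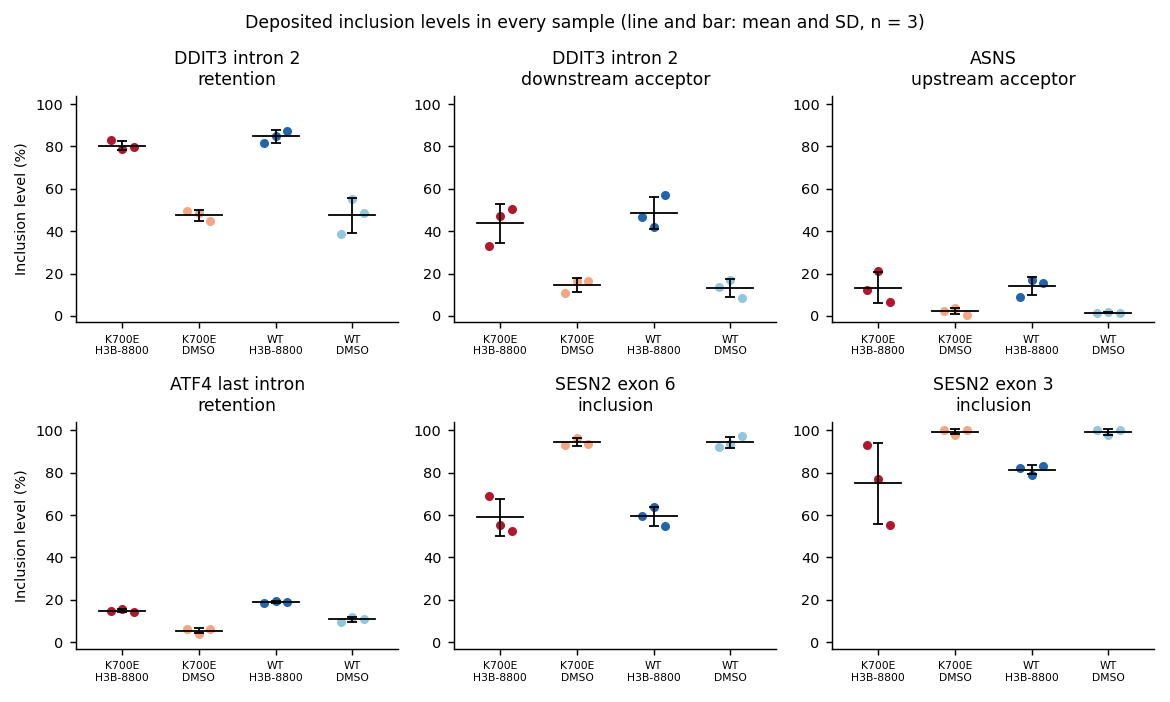
Deposited inclusion level in percent for 6 events of DDIT3, ASNS, ATF4 and SESN2 in each sample (points), with the group mean and SD (n = 3) and axes from 0% to 100%. Retention of DDIT3 intron 2 averages 80.4% and 84.8% in the H3B-8800 groups of K700E and WT and 47.6% and 47.4% in their DMSO groups, and SESN2 exon 6 averages 58.9% and 59.4% against 94.4% and 94.3%.

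The other 4 genes showed small or no changes. In ATF3, the 2865-nt intron rose by 3.0 points to 4.3% ± 0.8 in K700E H3B-8800, against 1.2% ± 0.8 in K700E DMSO (SD, limma adjusted p = 0.0273). The same intron was at 3.8% ± 1.2 in WT H3B-8800 and 1.5% ± 1.6 in WT DMSO (adjusted p = 0.0664). The 1851-nt intron of XBP1 was at 4.6% ± 1.5 in K700E H3B-8800 and 2.6% ± 0.4 in K700E DMSO (adjusted p = 0.0270), and at 2.8% ± 0.7 in WT H3B-8800 and 2.7% ± 0.2 in WT DMSO (adjusted p = 0.886). Its main alternative 5′ site was at 97.5% ± 0.3 in K700E H3B-8800 and 98.4% ± 0.4 in K700E DMSO (adjusted p = 0.0388). The tested intron of PPP1R15A was retained at 6.4% ± 0.7 and 4.5% ± 1.7 in K700E H3B-8800 and DMSO, and at 4.3% ± 1.7 and 7.1% ± 2.2 in WT (adjusted p = 0.257 and 0.100), so the gene with the largest rise in spliced reads had no called event. The single exon event of PPP1R15A was at 100% in every sample, and that of XBP1 with the largest difference at 99.7% to 100%. The TRIB3 exon with the largest difference was included in 98.0% to 100% of transcripts in the 6 K700E samples and in 98.5% to 100% in the 6 WT samples.

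Summed over all introns of a gene, the unspliced share of reads was 11.4% ± 2.9 for SESN2 in K700E H3B-8800 and 1.9% ± 0.6 in K700E DMSO, and 10.7% ± 2.5 in WT H3B-8800 and 1.7% ± 0.4 in WT DMSO (SD, n = 3 each). It was 33.6% ± 2.4 for DDIT3 in K700E H3B-8800 and 25.1% ± 1.8 in K700E DMSO, and 36.5% ± 2.4 in WT H3B-8800 and 27.5% ± 4.1 in WT DMSO. For TRIB3 it stayed between 1.1% and 1.7%, and for XBP1 between 2.6% and 3.6%, over the 4 group means. For ATF4 it was 17.7% ± 0.4 in K700E H3B-8800 and 7.8% ± 1.6 in K700E DMSO, and 23.2% ± 0.9 in WT H3B-8800 and 14.7% ± 1.9 in WT DMSO. SESN2 combined a higher unspliced share with lower spliced reads in the same samples. Whether the unspliced transcripts account for the missing spliced ones was not tested.

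The third comparison set K700E against WT. In DMSO, 4.86% of all genes were called by spliced reads (2.91% higher and 1.95% lower in K700E) and 0.358% of all events. ATF4 was higher in K700E, with 156 ± 25 RPM in K700E and 113 ± 10 RPM in WT (SD, n = 3 each, log2 0.46 ± 0.11 SE, limma adjusted p = 0.0453), and so was ATF3, with 5.09 ± 0.92 RPM in K700E and 2.74 ± 0.78 RPM in WT (log2 0.91 ± 0.22, adjusted p = 0.0427). DDIT3 had 11.4 ± 3.2 RPM in K700E and 6.78 ± 0.48 RPM in WT, without a call (log2 0.71 ± 0.25, adjusted p = 0.132). The other 5 genes had adjusted p from 0.502 to 0.964.

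In H3B-8800, where 14.2% of genes (11.1% higher and 3.09% lower in K700E) and 0.502% of events were called, ATF4 and ATF3 were called as well. ATF4 had 139 ± 8 RPM in K700E and 100 ± 5 RPM in WT (log2 0.47 ± 0.11 SE, limma adjusted p = 0.0216), and ATF3 had 5.73 ± 0.32 RPM in K700E and 3.43 ± 0.54 RPM in WT (log2 0.75 ± 0.22, adjusted p = 0.0465). DDIT3 had 17.3 ± 6.1 RPM in K700E and 10.0 ± 1.1 RPM in WT (log2 0.73 ± 0.25, adjusted p = 0.0794), and passed without the H3B-8800 library of K700E clone 3 (1.01, adjusted p = 0.0216). The other 5 genes had adjusted p from 0.234 to 0.778. Both comparisons use the same clones and cultures, so neither is independent support for the other. The calls were narrow. In DMSO the ATF3 call was lost on leaving out any 1 of 9 libraries (adjusted p 0.0507 to 0.173), all but WT DMSO replicate 1, K700E H3B-8800 replicate 1 and K700E DMSO replicate 2, and the ATF4 call on leaving out any 1 of 9 (0.0515 to 0.178), all but K700E H3B-8800 replicates 1 and 2 and K700E DMSO replicate 3. In H3B-8800 the ATF3 call was lost without any 1 of 9 (0.0558 to 0.146), all but WT DMSO replicate 1 and K700E DMSO replicates 1 and 2, and the ATF4 call without WT H3B-8800 replicate 2 or 3 (0.0759 and 0.0656). With median-of-ratios scaling none of the 8 genes was called in either treatment, where 5.03% of all genes were called in DMSO and 12.4% in H3B-8800. For ATF4 the log2 difference was 0.39 in DMSO (adjusted p = 0.0879) and 0.35 in H3B-8800 (adjusted p = 0.0760).

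No event of the 8 genes was called by limma between the genotypes in either treatment, and none was called for its response to the drug, as against 0.00747% of all events. At an unadjusted p under 0.05 there were 6 of the 45 events in DMSO, 4 in H3B-8800 and 2 for the response, and a test on percentage points called 0 in each. Of all 120493 events, 15572 in DMSO, 11546 in H3B-8800 and 8573 for the response had an unadjusted p under 0.05. In DMSO, 2 of the 45 events had an adjusted p under 0.05, as did 2241 of all 120493. Retention of the ATF4 intron was 5.39 points lower in K700E, 5.4% ± 1.2 in K700E and 10.8% ± 1.1 in WT (SD, n = 3 each, limma adjusted p = 0.00958), and a 36-nt untranslated exon of ASNS at chr7:97869778-97869813 was at 96.9% ± 0.7 in K700E and 99.1% ± 0.4 in WT (adjusted p = 0.0135). In H3B-8800 the ATF4 intron was 4.2 points lower in K700E (adjusted p = 0.496). The downstream acceptor of DDIT3 averaged 14.5% ± 3.3 in K700E and 13.1% ± 4.2 in WT in DMSO (adjusted p = 0.928), and 43.6% ± 9.2 and 48.5% ± 7.7 in H3B-8800.

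Beyond the 8 genes, 89 other genes of the pathway were taken from a list drawn up by role, of which 80 were measured. H3B-8800 raised 19 and lowered 26 in K700E, and raised 20 and lowered 26 in WT, with a median log2 change of −0.04 in K700E and −0.07 in WT beside −0.22 and −0.28 for all genes tested, of which 16.2% were higher and 35.8% lower in K700E and 18.5% and 40.8% in WT. With median-of-ratios scaling the split was 24 higher and 16 lower in K700E and 27 higher and 15 lower in WT, with medians over the list of 0.17 and 0.20, while all genes split about evenly, with 26.4% higher in K700E and 29.2% in WT. With the block it was 29 higher and 37 lower in K700E, where 26.9% of all genes were higher and 51.5% lower, and 28 higher and 36 lower in WT, where 27.9% were higher and 54.5% lower. The split of the list thus moves with the scaling.

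The eIF2 role of the list covered eIF2, its exchange factor eIF2B, its phosphatases and the translation factors EIF2A, EIF2D, DENR and MCTS1. Among its 16 genes, 5 were higher and 9 lower in K700E, and 4 were higher and 9 lower in WT. With median-of-ratios scaling 6 were higher and 5 lower in K700E, and 6 were higher and 6 lower in WT. EIF2B5, the catalytic subunit of eIF2B, fell by 1.27 on the log2 scale in K700E, with 71.3 ± 8.1 RPM in H3B-8800 and 171 ± 10 RPM in DMSO (SD, n = 3 each, limma adjusted p = 2.30e-06), and by 1.51 in WT, with 66.0 ± 5.8 and 188 ± 6 RPM (adjusted p = 4.20e-07). EIF2B3, another subunit, fell by 0.96 in K700E (adjusted p = 0.000451) and by 1.21 in WT (adjusted p = 6.59e-05). The remaining 3 subunits, EIF2B1, EIF2B2 and EIF2B4, named after their values were seen, fell by 0.66, 0.86 and 0.76 in K700E and by 0.80, 0.90 and 0.81 in WT. All 5 eIF2B subunits were therefore lower in both genotypes, and with median-of-ratios scaling their log2 changes ran from −1.05 to −0.44 in K700E and from −1.24 to −0.53 in WT.

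Among 9 measured sensors and kinases, 1 was higher and 4 lower in K700E, and 2 were higher and 4 lower in WT, or 2 and 3 in K700E and 4 and 3 in WT with median-of-ratios scaling. OMA1 and DELE1, the mitochondrial protease and its substrate that relay mitochondrial stress to eIF2, fell by 1.27 and 1.13 in K700E and by 1.60 and 1.44 in WT on the log2 scale (limma adjusted p = 0.000100 and 0.000108 in K700E, 1.27e-05 for both in WT). EIF2AK3 (PERK), the eIF2 kinase of the endoplasmic reticulum, was the only one higher in both, at 1.19 in K700E and 1.35 in WT, and was named after its value was seen. Among 6 measured transcription factors, ATF2 rose by 0.89 in K700E (adjusted p = 0.000104) and 1.17 in WT (adjusted p = 9.72e-06), and NFE2L2 (NRF2), the regulator of the oxidative stress response, by 0.85 and 0.83 (adjusted p = 2.15e-05 and 1.62e-05). No other factor of that role was called in K700E, and in WT JDP2 was lower.

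Of 20 genes for amino acid supply, which include many ATF4 targets, 2 were higher and 7 lower in K700E, and 1 was higher and 7 lower in WT, a share of lower genes near that of all genes (35.8% and 40.8%). With median-of-ratios scaling 2 were higher and 3 lower in each genotype. PSPH, an enzyme of serine synthesis, fell by 1.12 in K700E (limma adjusted p = 3.74e-05) and 1.32 in WT (adjusted p = 7.74e-06), and NARS1, the asparaginyl-tRNA synthetase, by 1.07 in each (adjusted p = 8.39e-06 and 5.11e-06). Of 10 measured stress effectors, 3 were higher and 1 lower in K700E, and 4 were higher and 1 lower in WT, or 5 and 1 in K700E and 4 and 0 in WT with median-of-ratios scaling. GADD45B, a stress and DNA damage response gene, had 77.4 ± 10.2 RPM in K700E H3B-8800 and 39.8 ± 1.4 RPM in K700E DMSO, and 63.6 ± 3.6 RPM in WT H3B-8800 and 28.1 ± 2.1 RPM in WT DMSO (SD, n = 3 each, log2 0.95 and 1.18, adjusted p = 2.40e-05 and 3.30e-06). VLDLR, a lipoprotein receptor induced by endoplasmic reticulum stress, had 0.70 ± 0.21 RPM in K700E H3B-8800 and 2.36 ± 1.09 RPM in K700E DMSO, and 0.33 ± 0.11 RPM in WT H3B-8800 and 0.95 ± 0.42 RPM in WT DMSO (log2 −1.66 and −1.43, adjusted p = 0.0116 and 0.0210).

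Of 19 chaperones and degradation factors of the endoplasmic reticulum, which XBP1 and ATF6 control, 6 were higher and 5 lower in K700E, and 7 were higher and 4 lower in WT, or 7 and 4 in K700E and 9 and 3 in WT with median-of-ratios scaling. Spliced reads of SYVN1, the ubiquitin ligase of that pathway, fell by 0.65 in K700E (limma adjusted p = 0.00399) and 0.91 in WT (adjusted p = 0.000370). Those of MANF, a secreted stress protein, fell by 0.69 and 0.72 (adjusted p = 0.000204 and 0.000114). Unspliced reads of SYVN1 were 4086 to 4794.5 in K700E H3B-8800 and 956 to 1142 in K700E DMSO. In WT they were 2799 to 4651 in H3B-8800 and 617.5 to 1064 in DMSO. Fewer spliced reads of SYVN1 thus stood beside more unspliced ones, and a change of its total was not tested. Both directions were thus present within every role of the list in at least 1 genotype, except that with median-of-ratios scaling no transcription factor was called lower. Between K700E and WT, 5 of the 80 genes were higher and 1 lower in K700E in DMSO, and 11 were higher and 1 lower in H3B-8800, where 4.86% and 14.2% of all genes were called in either direction. With median-of-ratios scaling 4 were higher and 1 lower in each treatment (5.03% and 12.4% of all genes called). None differed in its response to the drug between genotypes in the unblocked fit, and with the culture or clone as a block 0 were higher and 3 lower in K700E relative to WT, where 6.05% of all genes were called.

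Outside the members and the list, the genes whose spliced reads most resembled the mean standardized profile of the 8 genes over the 12 samples were GEM, MED10 and LGALS1, with Pearson r of 0.947, 0.946 and 0.928 among 10081 genes compared. The points share clones, cultures and treatment, and the values are a description.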

How the data were processed

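Poly(A) RNA of 12 MEC1 samples was sequenced from stranded libraries in 3 technical runs each, per the labels' protocols. The submitters' processing notes name cutadapt 2.4 and the build hg38, but no aligner or event tool (not given in the sources used here). For each event, the authors deposited the inclusion level in percent and a text column with read numbers (junction read numbers, corrected inclusion and exclusion reads). In 4091592 values with reads, 0 percent values differed from the reads' ratio by more than 1 point. Another 36 value columns and 36 text columns for single runs were not used.

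Events needed 10 reads in all 12 samples, a mean level of 1% to 99% and, for introns, balanced junctions (p under 0.05 in at most 6 samples). Log2 odds with 0.5 reads added were fitted with limma 3.58.1 in R 4.3.3, 4 groups together, and called at 10 points and p under 0.05 after Benjamini-Hochberg adjustment over the 120493 events. Log2 RPM of spliced reads (0.5 added, mean of at least 50 reads, 10182 genes) was fitted likewise. Both scripts were tested on simulated data. The same numbers mark the same culture or clone within a genotype, per the labels. Deviations of spliced reads of such pairs correlated at 0.658 to 0.925, and those of event log odds at only 0.015 to 0.066. Across genotypes a number pairs nothing.

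The genes and lists were chosen with earlier results of these data known. Named were all 8 genes, for each the event of each kind with the largest difference, and per role the 2 pathway genes with the largest change called in both genotypes. Other settings (read minimum, filters, added value, weights, scale, samples fitted, scaling, reads summed, limma voom, left-out samples, blocks) are in the closing section.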

Additional observations from a re-analysis of the deposited data

Results flagged for a closer look

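XBP1 stood out because the effect of H3B-8800 on its spliced reads was called as different between the genotypes in the blocked fit. With the culture or clone as a block, the log2 change in K700E minus that in WT was −0.32 (SE 0.07, limma adjusted p = 0.0205), from 0.32 in K700E and 0.64 in WT. The 3 K700E clones changed by 0.25 to 0.38 and the 3 WT replicates by 0.59 to 0.69. That fit called 6.05% of all genes. Without the block the same difference had an adjusted p of 1.00. Median-of-ratios scaling, also fitted without the block, gave −0.37 (SE 0.28) and no call. A blocked fit with that scaling was not made.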

How the results depend on the processing

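The counts of called events (10 in K700E, 9 in WT, 0 between genotypes and for the difference of the effect) kept within 1.5 times under a 20-read minimum, no level filter, no balance filter, 1 read added, read weights, a test on percentage points, a 15-point threshold, a fit of the 6 samples compared and the replicate block. At 5 points they were 16 in K700E, 18 in WT and 1 between genotypes in DMSO, the ATF4 intron. Leaving out 1 replicate, or a culture or clone in both treatments, gave 10 to 12 in K700E, 9 to 10 in WT and 0 to 0 elsewhere. The counts of called genes moved more. For H3B-8800 in K700E (2 genes) they were 4 with median-of-ratios scaling and 7 with the replicate block. In WT (3 genes) they were 5 with that scaling, 5 with 6 samples and 8 with the block. Between genotypes in DMSO (2 genes) they were 0 with that scaling, 1 with unspliced reads added (ATF3), 1 with the single intron with the most reads (ATF4) and 0 with 6 samples. In H3B-8800 (2 genes) they were 0 with that scaling, 1 with a mean of 200 reads and 1 with 6 samples, ATF4 in both. The difference of the effect (0 genes) had 1 with the block. A block by replicate number gave 3 genes between genotypes in each treatment. Leaving out samples gave 2 to 4 genes for the drug in each genotype, 0 to 2 between genotypes in DMSO, 0 to 3 in H3B-8800 and 0 to 0 for the difference. XBP1 in WT lost its call without WT replicate 1, 2 or 3 in both treatments (adjusted p = 0.0718, 0.0615 and 0.0505). Signs turned in 3 values with median-of-ratios scaling, ATF4 at 0.10 in WT and 0.0600 in K700E and ASNS at 0.00681 in WT. With a replicate left out, the log2 change in K700E ranged from −0.0117 to 0.49 for TRIB3 and from −0.67 to 0.24 for ASNS. The cause of these shifts was not tested. SESN2 intron 2 rests on 11 to 38 reads per sample and the DDIT3 acceptors on 40 or more, which limits their precision.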
